A study of Mus musculus with 30 samples.

Results

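The genes described here encode the proteins of the cytosolic and the mitochondrial ribosome, measured in the liver of mice gavaged with chicory root decoctions or inulin. They were taken as every gene whose platform symbol begins with Rpl or Rps (cytosolic) or with Mrpl or Mrps and a number (mitochondrial). The Rps6k kinases, which share letters but are not ribosomal, were left out. This gave 156 of the 8996 genes measured: 79 cytosolic, with 49 large-subunit and 30 small-subunit symbols, and 77 mitochondrial, with 49 and 28. The symbol rule also took in names that are not core ribosomal proteins, such as Rps19bp1, which encodes a protein that binds Rps19, and pseudogene or retrogene symbols such as Rpl34-ps1 and Rps23rg1. A gene was read from its brightest probe; 87 of the genes had 1 probe and 69 had several.

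The livers came from 30 mice, with 1 array per mouse and 3 mice in each of 10 groups. Mice were 8 weeks old at the start, ate standard chow and were gavaged with 500 µl daily for 30 days. The first experiment set decoctions of root powder from 2 chicories, G12 and G35 (10 mg of powder daily for each animal), against water in both sexes; its water group is called control 1. The second, run later, set inulin, the fructan stored in chicory root, against water (control 2), again in both sexes, at a daily dose of 6.9 mg chosen to equal what G35 supplies. The central core of the left lobe was used, so a value is an average over the cells of that piece, and fewer cells of a type cannot be told apart from less RNA per cell. The labels give neither strain nor housing, so shared cages or litters are not known.

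A cytosolic ribosome joins a small subunit, which decodes the messenger RNA, to a large subunit, which forms the peptide bond. Its proteins are needed in matched numbers, and their messenger RNAs carry a terminal oligopyrimidine tract, a run of C and T at the very start of the transcript through which the kinase complex mTORC1 and the binding protein LARP1 set their translation with nutrient supply. The mitochondrial ribosome makes only the membrane subunits of oxidative phosphorylation that the mitochondrial genome encodes, and all of its proteins are encoded in the nucleus and imported. In liver, which makes most plasma proteins, transcripts of the cytosolic ribosome are among the most abundant.

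The start regions of 4 members on which the results below turn are printed here, from 50 bases before to 30 bases after the RefSeq transcription start on build GRCm38.p6, on the gene's strand. Rps3, Rps24 and Rpl4 belong to a group that followed the slides, and Rpl22l1 differed most between the sexes among the members called. Capitals mark runs of at least 8 C or T that touch the 20 bases on either side of the start. Rpl4 lies at chr9:64173337-64173416 on the plus strand, Rps24 at chr14:24490628-24490707 on the plus strand, Rps3 at chr7:99483680-99483759 on the minus strand and Rpl22l1 at chr3:28805458-28805537 on the plus strand.
Rpl4: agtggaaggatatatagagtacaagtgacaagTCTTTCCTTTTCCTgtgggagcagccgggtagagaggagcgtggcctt
Rps24: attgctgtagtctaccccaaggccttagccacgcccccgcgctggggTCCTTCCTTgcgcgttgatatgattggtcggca
Rps3: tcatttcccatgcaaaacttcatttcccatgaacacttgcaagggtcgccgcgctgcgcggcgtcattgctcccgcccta
Rpl22l1: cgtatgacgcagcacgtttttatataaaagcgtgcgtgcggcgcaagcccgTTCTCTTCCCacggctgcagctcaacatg

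Rpl4, Rps24 and Rpl22l1 hold such a run and Rps3 does not, which says only that these letters are not in this window. Of the 156 members, 131 had a start region in the table, 63 cytosolic and 68 mitochondrial. A run of at least 8 C or T within 20 bases of the start, searched on the gene's strand, was present in 44.4% of the cytosolic and 17.6% of the mitochondrial start regions, against 15.6% of all measured genes with one. The search for runs was chosen after the data had been seen. The fixed motifs CTTTTC or CTTTCC, searched on both strands in the same 40 bases, were present in 19.0% of cytosolic, 4.41% of mitochondrial and 5.3% of all start regions; both can lie inside a run. Over the whole 300 bases and both strands, CCGGAAG, the core of the site bound by ETS factors, was present in 36.5% of cytosolic, 35.3% of mitochondrial and 19.3% of all start regions. AAGATGG, the core of the YY1 site, was present in 14.3%, 19.1% and 7.72%, and TATAAA in 12.7%, 5.88% and 8.0%. The palindrome bound by NRF1 was rare, at 1.59%, 4.41% and 2.14%.

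Both ribosomes were bright on these arrays. The median of the gene means was 12.83 for the cytosolic and 9.63 for the mitochondrial members on the log2 intensity scale, with 7.95 for all genes, and 77 of 79 and 69 of 77 lay above that value. Brightness also depends on the probe, so no gene is ranked against another. The cytosolic means ran from 6.00 for Rps23rg1 and 6.79 for Rpl7l1, both near the dim end of the array, to 14.60 for Rps14 and 14.61 for Rpl10. The mitochondrial means ran from 6.35 for Mrpl35 to 12.06 for Mrpl14, and no member reached the scanner maximum on any array. The spread between mice of a group (pooled within-group SD) had a median of 0.238 for cytosolic and 0.207 for mitochondrial members, and of 0.221 for all genes. Among members brighter than the all-gene median, the steadiest of each ribosome were Rps23, which sits at the decoding centre of the small subunit, with an SD of 0.116, and Mrpl44, a large-subunit protein with an RNase III fold, with 0.138.

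Some values of the whole series touch every result. The median raw intensity per array ran from 141 to 511, the number of arrays limits the precision, and the arrays lay on 10 slides, 5 per experiment. Slide, taken alone, accounted for a median of 70.0% of the variance of a cytosolic member, 57.6% of a mitochondrial member and 59.4% of another gene. These shares include the difference between the experiments, within which the slides lie, and any split of the arrays into 10 sets would take up some variance. Every water array from a male lay at one slide position where no gavaged male lay, so position and gavage cannot be told apart in males. Hepatocyte markers were measured for 7 of 8 genes, with a mean level of 14.75 to 15.22 on every array. No cholangiocyte marker and only 2 of 11 lymphocyte markers were among the measured genes. The labelled sex was checked on genes known to differ between male and female mouse liver, listed after the data had been seen. Of 18 measured liver genes, 13 were called in the known direction and 0 in the opposite one. For 7, among them the female-typical Cyp2b13 and Cyp3a44 and the male-typical Cyp2d9 and Cyp7b1, all male arrays were apart from all female arrays. X-linked genes of the same list were left out of these counts. Kdm6a, Kdm5c and Ddx3x lay higher in females, at 0.26, 0.28 and 0.06, and were not called. Eif2s3x was called in the opposite direction, as described below.

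The first question was whether a month of either decoction or of inulin moved the transcripts of the ribosome. For each array the median over the members was taken first. In male control 1 livers the cytosolic median was 12.91, 12.81 and 12.82, and in male G35 livers it was 12.72, 12.70 and 12.82. In female control 1 livers it was 12.87, 12.79 and 12.87, and in female G35 livers 12.92, 12.94 and 12.84. The male G35 group reached below its controls and the female G35 group above its controls, with overlap in both sexes. The cytosolic group means were 12.75 ± 0.06 (SD, n = 3) for male G35 and 12.84 ± 0.05 for its controls, and 12.90 ± 0.06 and 12.84 ± 0.05 in females. The G12 groups lay at 12.85 ± 0.07 in males and 12.82 ± 0.03 in females, within the spread of control 1.

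**Figure D1:**
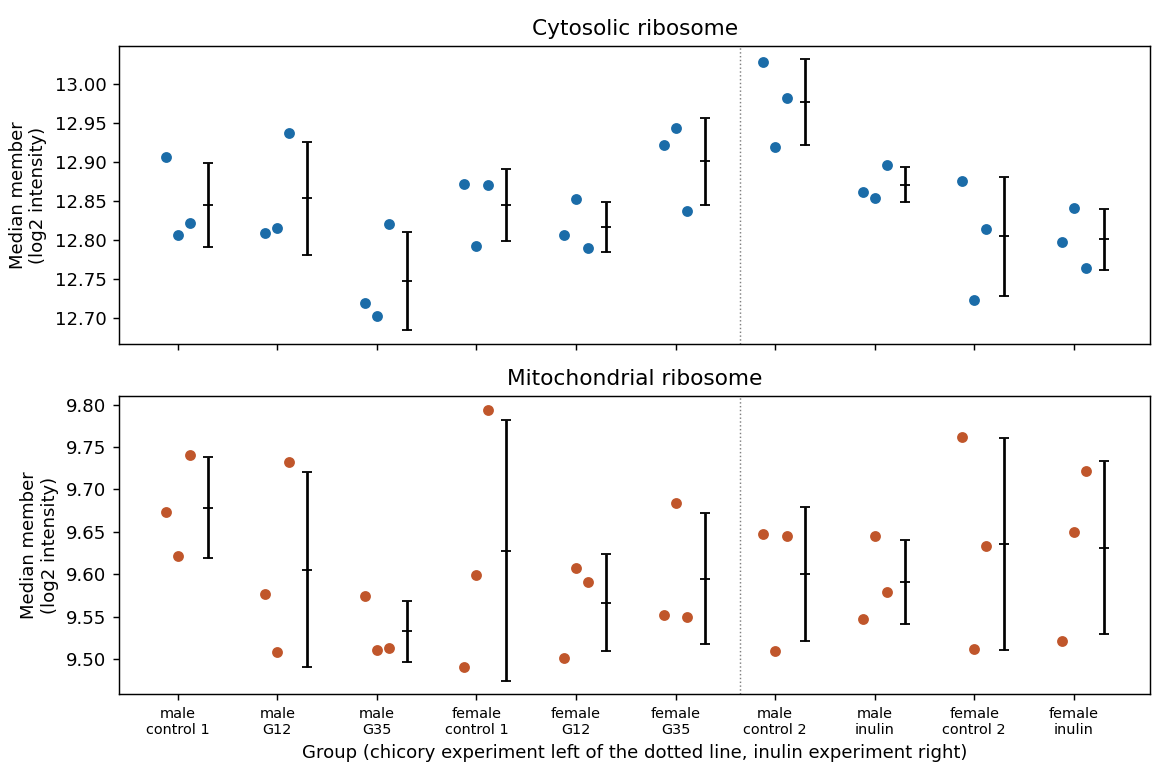
Median log2 intensity over the 79 cytosolic (top) and 77 mitochondrial (bottom) ribosomal protein genes on each of the 30 arrays, by group; points are mice, and the bar beside them is the group mean ± SD (n = 3). The cytosolic medians lie between 12.70 and 13.03 and those of treated groups overlap their controls except for inulin in males.

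In the inulin experiment, male control 2 livers had cytosolic medians of 13.03, 12.92 and 12.98, and male inulin livers had 12.86, 12.85 and 12.90. These 3 against 3 did not overlap; their means were 12.98 ± 0.06 and 12.87 ± 0.02, and a design of this size allows no exact two-sided p below 0.1. Paired by slide, male control 2 and male inulin medians were 12.92 and 12.86 (slide 8), 12.98 and 12.85 (slide 10) and 13.03 and 12.90 (slide 7). Another measure, the median over cytosolic members of the difference within a slide, lay at -0.00, -0.05 and -0.06 on slides 8, 10 and 7. Female control 2 livers had 12.88, 12.72 and 12.81 and female inulin livers 12.80, 12.84 and 12.76, which overlapped. The mitochondrial medians overlapped between treated and control mice in every experiment and sex except male G35, where 9.57, 9.51 and 9.51 lay below 9.67, 9.62 and 9.74. The mitochondrial group means ran from 9.53 ± 0.04 in male G35 to 9.68 ± 0.06 in male control 1.

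No ribosomal protein gene of either kind passed the test under G35, G12 or inulin averaged over the sexes, with 6 treated against 6 control mice. The test was limma's moderated test over all 8996 genes, with Benjamini-Hochberg adjustment and a threshold of 0.05. Under G35, 0 of 156 were called where 0.0556% of all genes were (5 genes); unadjusted p was under 0.05 for 2 cytosolic and 3 mitochondrial members, all lower, and for 7.86% of all genes (4.05% lower). Under G12, 0 members and 0% of all genes were called, with 2 cytosolic and 5 mitochondrial members at an unadjusted p under 0.05, against 5.19%. Under inulin, 0 members and 0% of all genes were called, with 1 and 1 member, against 1.99%. Comparing G35 with G12 directly called 0 members and 0% of all genes, with 0 cytosolic and 3 mitochondrial members at an unadjusted p under 0.05, against 4.54%.

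The size of the differences was small for nearly all members. Under G35 the cytosolic members ran from -0.43 to 0.50 log2, with a median of -0.00 and 38 of 79 higher, and the mitochondrial members from -0.31 to 0.18, with a median of -0.06 and 57 of 77 lower; the median of all genes was -0.01. Under G12 the medians were 0.00 for cytosolic (40 of 79 higher) and -0.02 for mitochondrial members (44 of 77 lower), with 0.01 for all genes. Under inulin they were -0.03 (52 of 79 lower) and -0.04 (51 of 77 lower), with -0.01 for all genes. G12 and G35 share their controls. Against the same controls, Kupffer cell and macrophage markers were above control 1 under G35 for 9 of 9 genes, with a median of 0.24 and 0 called, and their mean level ran from 8.16 to 8.32 in male controls, 8.22 to 8.66 in male G35, 8.26 to 8.77 in female controls and 8.48 to 9.00 in female G35 livers; their part in the ribosomal values was not tested. Under G12 both measured pancreatic acinar markers of 8 listed were higher, with a median of 2.78 and 0 called. Their mean level was 7.83 to 7.98 in male controls and 10.63 to 14.59 in male G12 livers, and 7.70 to 11.21 and 7.69 to 13.73 in females. In G35 livers it was 7.593 to 8.035 in males and 7.64 to 13.72 in females, so high levels were not confined to G12. Under inulin 5 of 5 erythroid markers were lower, with a median of -0.39 and 0 called; their mean level was 11.69 to 12.10 in female control 2 and 10.90 to 11.25 in female inulin livers, without overlap, and 12.08 to 12.36 and 11.72 to 12.93 in males. Erythroid markers were also lower for 4 of 5 genes under G12, with a median of -0.39, and for 4 of 5 under G35, with -0.13. Of them 0 were called under either decoction. The part of these markers in the ribosomal values was not tested either.

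**Figure D2:**
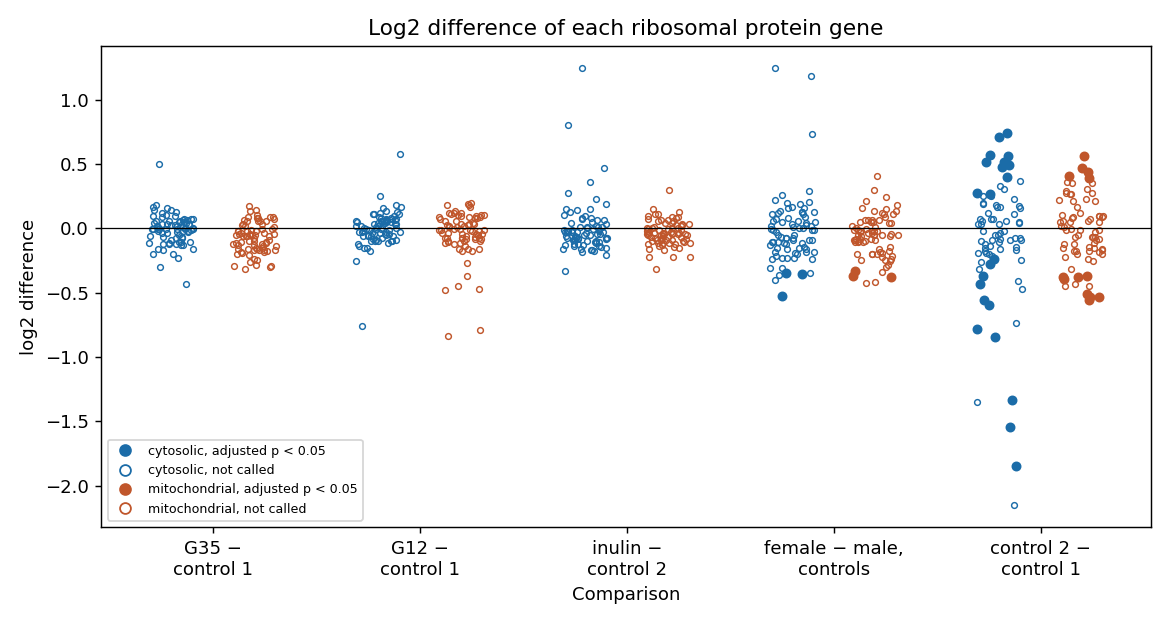
Log2 difference of each ribosomal protein gene in 5 comparisons, cytosolic members left and mitochondrial right in each; filled points passed limma's test at an adjusted p under 0.05. No member is filled under G35, G12 or inulin, 6 are filled between the sexes and 35 between the control groups.

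The members with the lowest p under each gavage are given by name, although none passed. Mrps17, a small-subunit protein of the mitochondrial ribosome, was 9.67, 9.60 and 9.69 in male controls and 9.18, 9.36 and 9.13 under G35 in males, without overlap. In females it was 9.34, 9.53 and 9.73 in controls and 9.06, 9.64 and 9.42 under G35, with overlap. Averaged over the sexes its difference was -0.29 ± 0.10 (SE; limma, adjusted p = 0.413). It lay below controls under inulin too, at -0.22 ± 0.10 (limma, adjusted p = 1), in 5 of 5 sets of arrays that shared sex and slide, against 3 of 4 such sets under G35.

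Rps15, a protein of the head of the small subunit, differed by -0.30 ± 0.12 under G35 (limma, adjusted p = 0.552) and by -0.16 ± 0.12 under G12 (0.983). Mrpl38 lay at -0.31 ± 0.14 and the Rps4l transcript, which RefSeq lists as a transcribed pseudogene, at -0.43 ± 0.21 under G35. Rpl7l1, a paralogue of Rpl7 tied to assembly of the large subunit, lay at -0.20 ± 0.08 with a dim probe. On the other side, Rps7, a small-subunit protein that also binds Mdm2, lay at 0.16 ± 0.11, Mrpl37 at 0.18 ± 0.12, Rpl31 at 0.14 ± 0.11 and Rps23 at 0.13 ± 0.08 under G35. None of these passed (adjusted p from 0.522 to 0.825 in limma).

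Under G12 the lowest p of any member was that of Mrpl27, a large-subunit protein whose bacterial relative sits near the peptidyl transferase centre. It was 10.55, 10.45 and 10.85 in male controls and 10.23, 10.20 and 10.06 in male G12 livers, and 10.23, 10.79 and 11.03 against 10.54, 10.12 and 10.53 in females. The groups were apart in males and overlapped in females, and the averaged difference was -0.37 ± 0.12 (limma, adjusted p = 0.851). Rps23 lay at 0.17 ± 0.08, Rpl36a at 0.25 ± 0.15, Rps7 at 0.18 ± 0.11 and Mrpl20 at 0.20 ± 0.12, none of which passed (adjusted p from 0.916 to 0.959). Mrpl17 lay at -0.79 ± 0.29 and Rpl35a at -0.76 ± 0.35, and much of this size came from 1 array, described below. Of 4 sets of arrays that shared sex and slide, Mrpl17 was higher in 0 (-3.39 to -0.12) and Rpl35a in 1 (-3.77 to 0.02).

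Under inulin, Rpl11, a large-subunit protein that binds Mdm2 when free of the ribosome, lay at -0.21 ± 0.12, and Rpl8, whose bacterial relative lies near the peptidyl transferase centre, at -0.15 ± 0.09; both were lower in 5 of 5 sets of arrays that shared sex and slide. Rps18 lay at -0.33 ± 0.19, Mrps15 at -0.22 ± 0.13 and Mrpl34 at -0.16 ± 0.10. Mrpl41 was on the other side, at 0.30 ± 0.15, with Rpl36a at 0.28 ± 0.15 and Rps26 at 0.19 ± 0.10. Rps24 had the largest difference, 1.25 ± 0.58, and was among the members that followed the slides. The adjusted p was 1 in limma for each of these.

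Within each sex, no member was called under any gavage without a slide block. Under G35 in males, 59 of 79 cytosolic members lay below control 1 (median -0.10) and so did 55 of 77 mitochondrial members (median -0.09), with a median of -0.00 for all genes; the large-subunit symbols had 34 of 49 lower and the small-subunit symbols 25 of 30. In G35 females 53 of 79 cytosolic members lay above control 1 (median 0.09), while the mitochondrial median was -0.03 and that of all genes -0.01. The shares called among all genes were 0.0111% in males and 0% in females, and an unadjusted p under 0.05 was reached by 4 cytosolic and 9 mitochondrial members in males, all lower, against 5.86% of all genes (2.88% lower), and by 8 and 3 in females, against 8.05%. Sets of male arrays on slides 5, 4 and 1 had cytosolic medians of -0.11, -0.11 and -0.02 under G35, and the female set on slide 6 had 0.06. Each array centred on its own median gave -0.23 for the male cytosolic members, and scaling to the 75th percentile gave -0.21.

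The difference between the sexes in the G35 effect was then tested directly. It called 0 members, against 0.0222% of all genes, with 9 cytosolic and 8 mitochondrial members at an unadjusted p under 0.05, against 6.18%. For 59 of 79 cytosolic members the effect was higher in females than in males, with a median of 0.19, and for 47 of 77 mitochondrial members, with a median of 0.07; that of all genes was -0.01. Lowest in p was Rps19, a small-subunit protein needed to mature the 40S particle and mutated in Diamond-Blackfan anaemia in humans. It was 11.85, 11.53 and 11.70 in male controls and 11.53, 11.31 and 11.02 under G35, but 11.08, 11.13 and 10.99 in female controls and 11.50, 11.72 and 11.68 under G35.

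The male G35 values of Rps19 lay at or below the lowest male control and the female ones all lay above the female controls. The difference between the effects was 0.97 ± 0.20, a 1.96-fold change (limma, adjusted p = 0.133), which did not pass; with slide as a block the adjusted p was 0.109. The female control 1 values also set Rps19 apart in the sex comparison below, since both use the same 3 livers. Rps23 followed at 0.56 ± 0.16: it was 12.61, 12.64 and 12.70 in female controls and 13.03, 13.09 and 13.06 in female G35 livers, without overlap, and 12.90, 12.71 and 12.76 against 12.58, 12.51 and 12.83 in males, with overlap. Next came Mrps36 at 0.59 ± 0.18, now known as a part of the alpha-ketoglutarate dehydrogenase complex rather than of the ribosome. Neither Rps23 nor Mrps36 passed (limma, adjusted p of 0.389 and 0.502). The corresponding tests for G12 (0.0222% of all genes called) and inulin (0%) also called 0 members, with 4 cytosolic and 7 mitochondrial members at an unadjusted p under 0.05 for G12 and 1 and 3 for inulin, against 9.33% and 3.36% of all genes.

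For the other gavages within a sex, limma called no member either: 0 members were called under G12 in males (0% of all genes called), G12 in females (0.0556%), inulin in males (0%) or inulin in females (0%). Members at an unadjusted p under 0.05 numbered 2 against 3.92% of all genes, 18 against 11%, 1 against 2.07% and 5 against 3.65% in these 4 comparisons.

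Taking slide as a fixed block kept every averaged gavage comparison at 0 members called, where 0.456% of all genes were called under G35, 0.0333% under G12 and 0.0445% under inulin. In females it called Rps7 under G35, at 0.79 ± 0.15 (limma, adjusted p = 0.0399), where 0.856% of all genes were called; without the block the difference was 0.43 ± 0.16 (adjusted p = 0.445). Slide 6 alone held both female control 1 and female G35 arrays, with 1 control, replicate 1, whose 11.23 was the lowest of the 3, so the direct part of the blocked difference rests on that array. Rps7 was 11.23, 11.80 and 11.77 in female control 1, 12.22, 12.16 and 11.72 under G35 and 12.02, 12.29 and 11.81 under G12, so the groups overlapped under G35 and not under G12. In female G12 livers the block called 2 cytosolic and 5 mitochondrial members, against 4.45% of all genes. Rps7 rose by 0.66 ± 0.14 and Mrpl52 fell by 0.61, each at an adjusted p of 0.0204, and Mrpl38 fell by 0.57 at 0.0474.

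The other 4 of these calls, Mrpl17, Mrpl40, Mrps26 and Rpl35a, lay in a dim patch of the female G12 replicate 2 array. The patch held the probes of 6 members. Mrps26, for example, was 10.80, 6.68 and 10.92 in the 3 female G12 livers, and Rpl35a was 12.84, 9.39 and 12.79. Only replicate 2 was low for both, and it alone gave them their differences. With those features masked, an alternative chosen after the patch was seen, the slide fit called 1 cytosolic and 1 mitochondrial member in G12 females. These were Rps7 and Mrpl52, each at an adjusted p of 0.0272 in limma. The share of all genes called with the mask is not given.

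Genes that build or regulate ribosomes were looked at through lists chosen with earlier results of these data known. Of 70 measured genes of ribosome biogenesis, of 18 translation factors with terminal oligopyrimidine tracts, of 16 genes of the mTORC1 pathway and of 30 genes of mitochondrial translation and assembly, 0 were called under G35, G12 or inulin averaged over the sexes. Their medians lay between -0.06 and 0.06 log2 in all 3 comparisons. Mitochondrial translation genes were below control 1 under G35 for 22 of 30, with a median of -0.05, beside the -0.06 of the mitochondrial ribosomal proteins. With slide as a fixed block, Aatf, a nucleolar factor of the small-subunit processome, fell by 0.70 under G35 (adjusted p = 0.0104) and by 0.67 under G12 (0.0272), which share controls, Rrp36 fell by 0.49 under G35 (0.0436) and Llph fell by 0.43 under inulin (0.0455).

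The next question was how male and female livers differed among the water controls, 6 against 6. Of the members, 6 were called and all were lower in females, 3 cytosolic and 3 mitochondrial, while 5.4% of all genes were called, 2.8% lower. The calls made up 3.85% of the members. The medians were -0.05 for both ribosomes and -0.01 for all genes, with 45 of 79 cytosolic and 52 of 77 mitochondrial members lower. Rpl22l1, the paralogue of the RNA-binding large-subunit protein Rpl22, was 11.56, 11.23 and 11.36 in male and 10.37, 10.48 and 10.88 in female control 1 livers, and 10.89, 10.52 and 10.57 against 10.57, 10.47 and 10.22 in control 2.

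The sexes did not overlap for Rpl22l1 in control 1 and overlapped in control 2, and the difference was -0.52 ± 0.12 (SE; limma, adjusted p = 0.0119). Its start region, printed above, holds a run of 10 pyrimidines just after the start. Rpl22 itself lay at -0.30 ± 0.15 (adjusted p = 0.276). Rps26, which touches the messenger RNA upstream of the start codon, was 12.57, 12.70 and 12.61 in males and 12.46, 12.40 and 11.93 in females of control 1, and 12.55, 12.60 and 12.64 against 12.05, 12.40 and 12.29 in control 2. Females lay below every male in both experiments, with a difference of -0.36 ± 0.10 (limma, adjusted p = 0.0254), though over the treated groups too its female mean was lower in only 3 of 5 gavages.

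Mrpl44 was 8.49, 8.61 and 8.75 in males and 8.26, 8.25 and 8.23 in females of control 1, and 8.80, 8.58 and 8.58 against 8.44, 8.22 and 8.42 in control 2. It too was lower in every female than in every male of the same experiment, by -0.33 ± 0.09 (limma, adjusted p = 0.0236), and its female group mean was below the male one in 5 of 5 gavages. Mrpl53 and Mrpl39, both of the large subunit of the mitochondrial ribosome, differed by -0.37 ± 0.11 (adjusted p = 0.0428) and -0.38 ± 0.11 (0.049), and their female means were lower in 5 of 5 gavages as well. Rps19 differed by -0.34 ± 0.10 (0.0478), through -0.63 in control 1 and -0.06 in control 2.

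**Figure D3:**
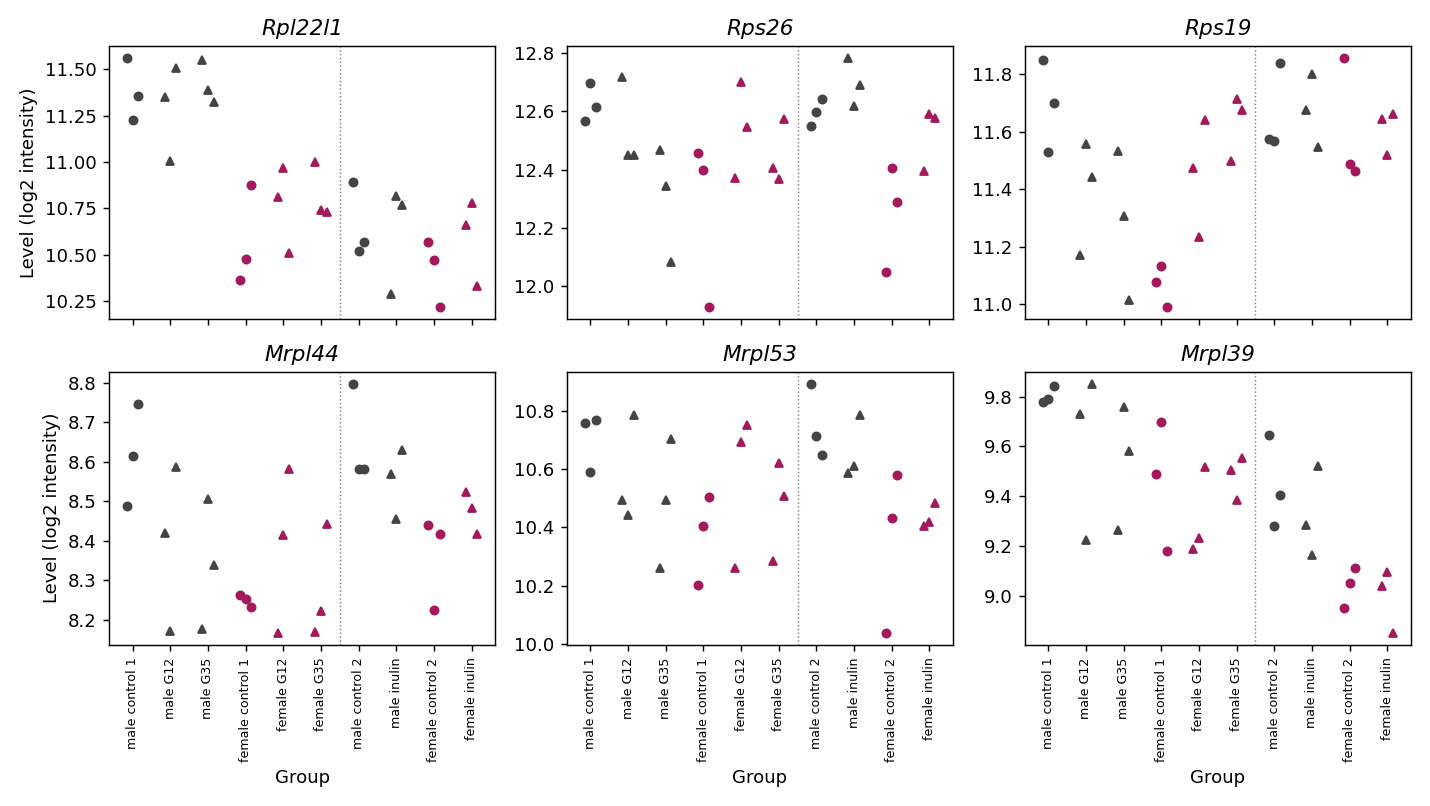
Log2 intensity of the 6 ribosomal protein genes called between the sexes, on each of the 30 arrays by group (males grey, females purple; circles water controls, triangles gavaged; chicory experiment left of the dotted line). Among controls, the female Rps26 and Mrpl44 circles lie below the male circles in both experiments, while the Rps19 circles do so only in control 1.

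These calls were close to the threshold. Rpl22l1 had an adjusted p of 0.078 and Rps19 of 0.137 with slide as a fixed block, and Rps19 of 0.0533 and Mrpl39 of 0.0526 with replicate number as a block, while Mrpl44, Rps26 and Mrpl53 passed with either. Cytosolic calls fell to 1 without female control 1 replicate 3 or without male control 2 replicate 3 and rose to 5 without female control 2 replicate 1. Mitochondrial calls fell to 1 without any 1 of male control 1 replicates 1, 2 and 3 or male control 2 replicate 3. They fell to 0 without male control 2 replicate 1 or female control 2 replicate 2, and rose to 5 without female control 1 replicate 2. The shares of all genes called without these arrays are not given.

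With slide as a fixed block the count rose to 11 cytosolic, 6 higher and 5 lower, and 9 mitochondrial, 5 higher and 4 lower, while 12.7% of all genes were called. Mrpl12, the stalk protein of the mitochondrial large subunit, which also binds the mitochondrial RNA polymerase, rose by 0.61 ± 0.10 in females (limma, adjusted p = 0.00069), against 0.41 ± 0.14 without slide (0.0861). It was 11.23, 11.16 and 11.68 in male and 11.72, 11.45 and 12.33 in female control 1 livers, and 11.58, 11.62 and 11.58 against 12.21, 12.04 and 11.54 in control 2, with overlap in each experiment. The acidic stalk proteins of the cytosolic large subunit, Rplp1 and Rplp2, rose by 0.43 ± 0.12 (0.0218) and 0.51 ± 0.12 (0.0119) in that fit, and Rps21 fell by 1.04 (0.000216). Without slide these 3 lay at 0.22 ± 0.17, 0.20 ± 0.16 and -0.13 ± 0.60, and none passed (adjusted p from 0.499 to 0.935). The slide fit compares females with males only where a slide held both. In the inulin experiment that was slide 10 alone, where female control 2 replicate 1 was the only female array. The control 2 part of these blocked differences thus rests on that array for females. Its Mrpl12 value, 12.21, was the highest of the female control 2 values.

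Around the ribosome, 1 of 70 biogenesis genes rose and 3 fell in females, with 52 of 70 lower and a median of -0.09, beside the -0.05 of both kinds of ribosomal protein. The called genes were Noc3l, which rose by 0.33 ± 0.09 (limma, adjusted p = 0.02), and Gnl3, Rrs1 and Ddx52, which fell by 0.41, 0.36 and 0.23. The largest difference among the translation genes was that of Eif2s3x, the X-linked gamma subunit of the initiation factor eIF2, which fell by 1.71 (adjusted p = 3.9e-09). This gene escapes X inactivation and is known to be higher in female mice, so its brightest probe went against the known direction, in every array (6.40 to 6.99 in females and 7.73 to 8.95 in males). Its other probe lay at 0.16 ± 0.16 (0.634), and what the brightest probe binds was not tested. Of marker genes, Kupffer cell markers were higher in females for 7 of 9, with 1 called, endothelial markers for 3 of 5, with 1 called, and erythroid markers for 3 of 5, with Alas2 called lower. Their part in the ribosomal values was not tested.

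Both sets of water controls were then compared, 6 against 6. Slides lie within experiments, so that experiment and slide cannot be told apart here. Without a slide block, this comparison called more members than any of the other 14. Of the cytosolic members, 22 were called, 11 higher and 11 lower in control 2, and of the mitochondrial members 13, 5 higher and 8 lower, with 22.9% of all genes called (13.7% higher and 9.23% lower). The medians were -0.05 and -0.01, with 0.04 for all genes. The share of cytosolic members called was thus near that of all genes. With slide as a random block 16 cytosolic and 11 mitochondrial members were called, against 18.3% of all genes. Without female control 2 replicate 1 the cytosolic count was 13, for which the share of all genes is not given.

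Rps4x, the X-linked copy of a core small-subunit protein, was 12.09, 12.21 and 12.14 in male and 12.21, 12.43 and 12.54 in female control 1 livers. In control 2 it was 11.56, 11.46 and 11.49 in males and 11.25, 11.56 and 11.23 in females. All 6 control 2 livers lay below all 6 of control 1, and it fell by 0.84 ± 0.09 (SE; limma, adjusted p = 1.12e-05). Rps3a1, which sits on the platform of the small subunit, was 11.95, 11.71 and 11.43 in males and 11.09, 11.47 and 11.46 in females of control 1, against 12.55, 12.34 and 12.45 and 12.16, 11.75 and 12.31 in control 2. It rose by 0.74 ± 0.12 (limma, adjusted p = 0.000163), with overlap only between the dimmest female of control 2 and the brightest male of control 1. The treated mice of each experiment lay with their controls for both genes, Rps4x at 11.83 to 12.48 under the decoctions and 11.11 to 11.54 under inulin.

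Among the others, Rps7 rose by 0.57 ± 0.11, Rpl10a, of the stalk at the exit side of the large subunit, by 0.50 ± 0.11, Mrpl42 by 0.56 ± 0.11 and Mrpl3 by 0.44 ± 0.10. Mrps25 fell by 0.53 ± 0.12, and so did Mrps30, which structures place in the large subunit despite its symbol, by 0.53 ± 0.12. Rpl36al fell by 0.78 ± 0.19 and Rpsa, a small-subunit protein also known as the laminin receptor, by 1.33 ± 0.31. The adjusted p of these ran from 0.00119 to 0.00581 in limma. Of the lists, 6 of 70 biogenesis genes rose and 6 fell, among them Rrs1, which rose by 0.57, and Ncl, the abundant nucleolar protein nucleolin, which rose by 0.68. Larp1, the repressor that binds oligopyrimidine tracts, rose by 0.52 ± 0.15 (adjusted p = 0.0139), a call lost with slide as a random block (0.0633), and Eef1a1 fell by 0.91 ± 0.30 (0.0312). Erythroid markers were lower in control 2 for 5 of 5 genes, with 4 called and a median of -0.82, and their mean level was 12.59 to 13.17 in control 1 and 11.69 to 12.36 in control 2; their part in the ribosomal values was not tested.

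Whether such a difference belongs to the gene could be looked at where a gene had several probes. Of the 35 members called between the control groups, 13 had several, and in 6 of these all probes went the same way (Mrpl4, Mrpl40, Rpl10a, Rps18, Rps24 and Rpsa). In 4 of the 6, Mrpl40, Rpl10a, Rps18 and Rps24, a further probe was itself called when every probe was fitted. The further Rpsa probes lay at only -0.19 and -0.30, against -1.33. In the other 7 of the 13 at least 1 probe went the other way. In 3 of these 7, Rpl10, Rpl12 and Rps12, an opposite probe was itself called in that fit. Rps12 fell by 0.60 ± 0.15 on its brightest probe and rose by 0.43 ± 0.14 on the other (limma over 12544 probes, adjusted p of 0.00664 and 0.0292). The other Rps4x probe lay at 0.32 ± 0.13 against -0.84, and the other Rps3a1 probe at -0.74 ± 0.33 against 0.74. With the mean of a gene's probes in place of the brightest, the Rps3a1 difference was 0.00.

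**Figure D4:**
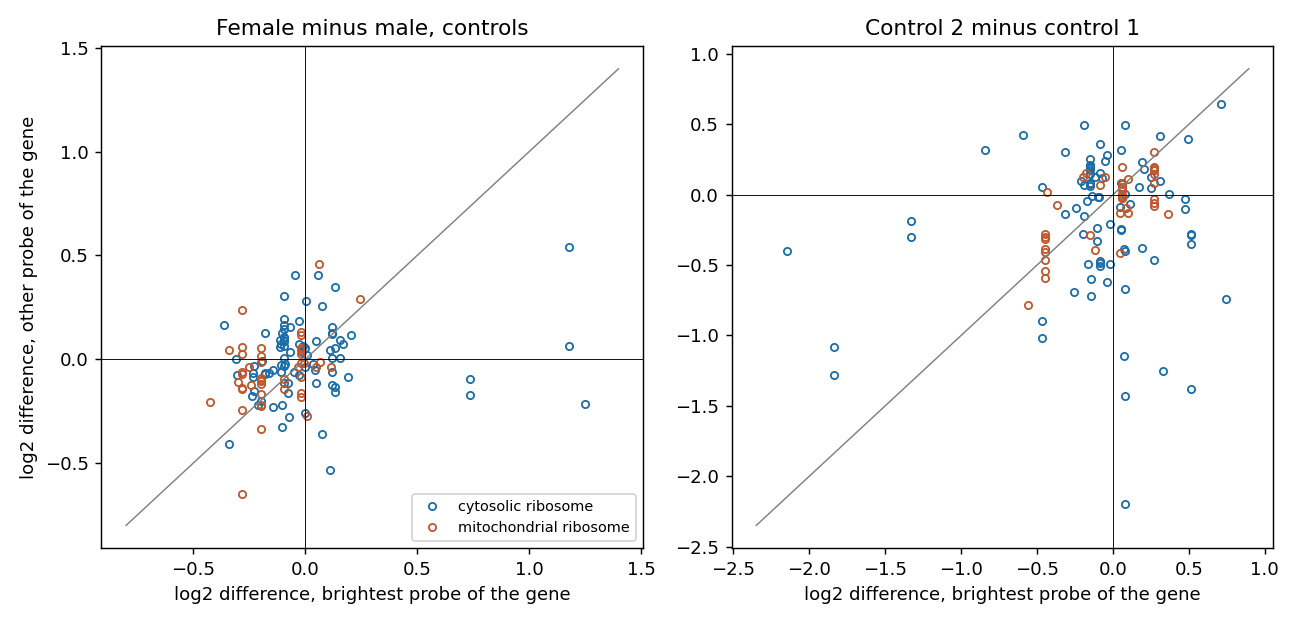
Log2 difference of the 129 further probes of 69 ribosomal protein genes against that of the gene's brightest probe, for females minus males (left) and control 2 minus control 1 (right); the grey line marks equality. Between the control groups 69 of the 129 further probes have the sign of the brightest probe and 60 the opposite sign.

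Between the control groups 69 of 129 further probes had the sign of the brightest probe of their gene and 60 the opposite sign. The cytosolic members had 41 against 44 and the mitochondrial members 28 against 16. Between the sexes the counts were 77 and 52. Over the 30 arrays the median correlation of a further probe with the brightest was 0.256, and 39 of 129 (30.2%) lay below 0. Cytosolic ribosomal protein genes have many near-identical processed pseudogenes, and which transcripts each probe binds was not tested, since probe sequences were not used here. All 6 members called between the sexes had 1 probe, so no such check was possible for them.

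Paralogues were set side by side next. Between the control groups Rps27l fell by 0.56 ± 0.16 (limma, adjusted p = 0.015), while Rps27 lay at -0.09 ± 0.08 (0.46). Rpl36al fell by 0.78 and Rpl36a lay at -0.19 ± 0.15 (0.368). Rpl22l1 fell by 0.44 ± 0.12 (0.0144) with Rpl22 at 0.04 ± 0.15, and Rpl7l1 fell by 0.23 ± 0.08 (0.035) with Rpl7 at 0.06 ± 0.11. In these 4 pairs the copy with the suffix passed and the parent did not, while in the fifth pair Rps4x passed and Rps4l lay at -0.41 ± 0.21 (0.174). Rpl32l, not in the planned list of pairs, fell by 0.27 ± 0.085 (limma, adjusted p = 0.0232), with Rpl32 at 0.12 ± 0.13 (0.529). Rps23 too rose, by 0.27 ± 0.08 (0.0147), and its retrogene symbol Rps23rg1 lay at -0.05 ± 0.06 (0.624). These values are those of the brightest probes. The 3 further Rps27 probes lay at -0.49, -0.47 and 0.16, and the 3 further Rpl7 probes at 0.08, -0.24 and 0.31. The difference between copies was not tested. The calls of Rpl22l1, Rpl7l1 and Rpl32l were lost with slide as a random block (limma, adjusted p of 0.0538, 0.0957 and 0.0618). Those of Rps27l, Rpl7l1 and Rpl32l were lost with replicate number as a block (0.274, 0.104 and 0.235). Mrps18a, Mrps18b and Mrps18c, the 3 mitochondrial proteins of the S18 family, lay between -0.07 and 0.05 and none passed.

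The widest spread of all members was that of a small group of cytosolic genes that followed the slides. Within-group SD was over 0.5 for 7 cytosolic members (8.86%), 2 mitochondrial members (2.6%) and 5.95% of all genes. The 2 mitochondrial members, Mrps26 and Mrpl17, and the cytosolic Rpl35a lay in the dim patch described above. Slide accounted for 35.6%, 16.5% and 16.9% of their variance, so they are not part of the group that followed the slides. Rps3, which lines the channel through which messenger RNA enters the small subunit, had an SD of 2.09 and ran from 5.73 to 12.40. Its slide means were 11.99, 11.99 and 12.18 on slides 4, 5 and 6, and 7.82 and 9.90 on slides 1 and 2 of the same experiment. In the inulin experiment they were 11.83 and 11.61 on slides 9 and 11, and 8.61, 5.75 and 5.91 on slides 7, 8 and 10. Slides 1 and 2 held all the replicate 3 arrays of the chicory experiment and no others. Slides 9 and 11 held only females, slides 7 and 8 only males, and slide 10 both sexes. Slide thus cannot be told apart from replicate set on slides 1 and 2, and hardly from sex in the inulin experiment.

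On slide 8, male control 2 replicate 2 had 5.73 and male inulin replicate 1 had 5.77. Slide accounted for 98.4% of the variance of Rps3. Rps24, a small-subunit protein mutated in some human Diamond-Blackfan anaemia, had slide means from 9.93 on slide 8 to 13.74 on slide 6, Rps21 from 9.25 on slide 10 to 11.86 on slide 5, Rpl4 from 10.93 on slide 1 to 12.88 on slide 6, and Rpsa from 11.36 on slide 8 to 13.92 on slide 6. By contrast, Rpl41, the smallest ribosomal protein, had an SD of 0.282 and ran from 13.68 to 14.84.

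**Figure D5:**
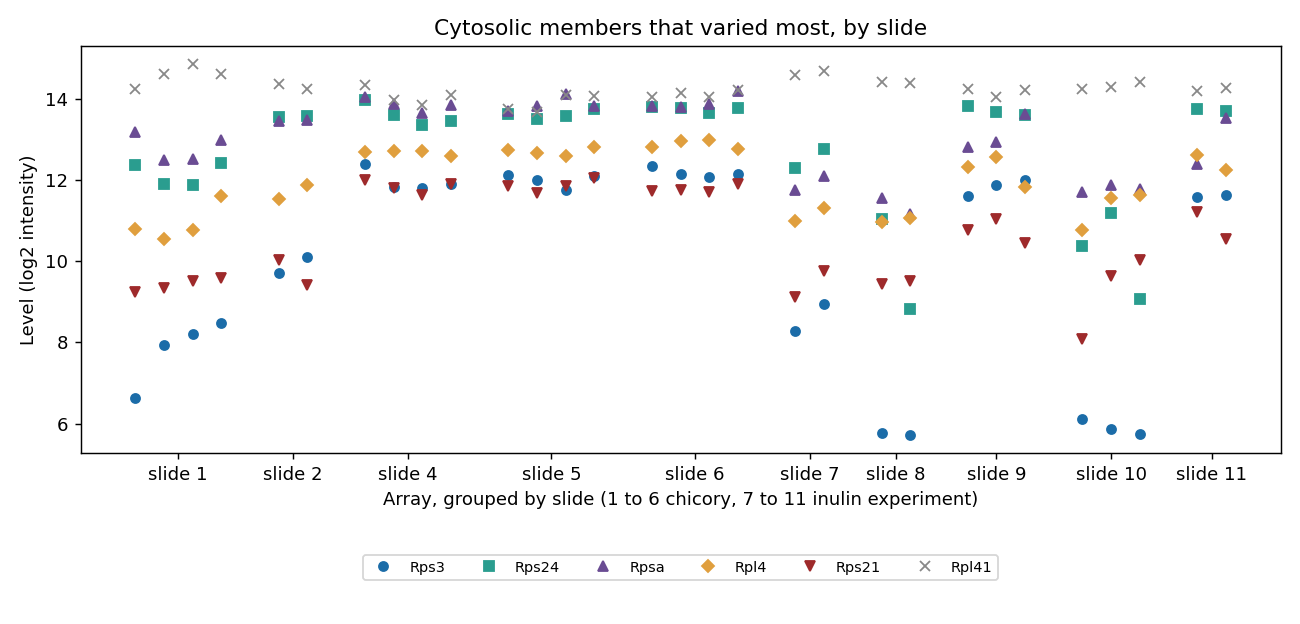
Log2 intensity on each of the 30 arrays, grouped by slide, of the 5 cytosolic genes Rps3, Rps24, Rpsa, Rpl4 and Rps21 and of Rpl41 for contrast. Rps3 falls from about 12 on slides 4 to 6 to between 5.73 and 8.94 on slides 7, 8 and 10, and the other 4 fall with it, while Rpl41 stays between 13.68 and 14.84.

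After group means were removed, Rps3 correlated over the 30 arrays at 0.899 with Rpsa, 0.882 with Rpl34-ps1, 0.879 with Rps21, 0.86 with Rps24 and 0.85 with Rpl4. These arrays share slides, so the coefficients describe the slides as much as the mice. A correlation above 0.8 with Rps3 was found for 5 of the other 78 cytosolic members (6.41%), 0 of 77 mitochondrial members and 116 of 8840 other genes (1.31%). Of the 5 members of this group whose start regions were looked up, Rps24 and Rpl4 hold a pyrimidine run and Rps3, Rps21 and Rpsa do not. The second Rps3 probe was dim, with a mean of 7.13, and lay at -0.40 ± 0.11 between the control groups where the first lay at -2.15 ± 1.11.

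Members as a whole varied together only loosely. The median correlation between pairs, over the 30 residuals from group means, was 0.0896 for all 79 cytosolic members and 0.126 for the 73 left without Rps3 and the 5 genes that followed it. It was 0.106 for mitochondrial and 0.0758 for cytosolic with mitochondrial pairs, against 0.0244 for all pairs of genes. Closest to the median of the cytosolic members were Rpl27a at 0.869, Rpl41 at 0.831 and Rps16 at 0.822, and furthest were Rpl36al at -0.771 and Rpl4 at -0.721. Among genes outside the group, Gm8624 (0.867), Nop10 (0.84), a component of the ribonucleoproteins that pseudouridylate ribosomal RNA, Gpx1 (0.835), Mtfr1 (0.832) and Gstm1 (0.826) were most like the cytosolic median, followed by Cox4i1, Atp5g2, Cnih1, Snrpg and Cox5a, from 0.803 to 0.825. Most like the mitochondrial median were Stard7 (0.891), Cks1b (0.864), Uqcrh (0.861), Cox5a (0.859) and Gstm1 (0.853), over the same 30 arrays.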

How the data were processed

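Each of 30 livers was hybridized alone, in Cy3, to an Agilent array, per the labels. What the authors deposited are linear intensities, whole numbers from 39 to 65535 with unequal medians. Per the submitters' processing notes the scans went through Agilent Feature Extraction, whose version and output column are not given in the sources used here. As no scaling between arrays was visible, normexp background correction (offset 50), quantile normalization and log2 were applied here to the deposited intensities. The plan had assumed normalized values and was adapted for this. Of 15505 probes, 12544 carried 1 symbol; the probe with the highest mean stood for a gene.

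All arrays entered 1 fit of 10 groups (20 residual degrees of freedom) in limma 3.58.1 and R 4.3.3, with 15 comparisons, each adjusted over 8996 genes by Benjamini-Hochberg. The members, lists and tests were chosen with earlier results of these data known. Named members are those called (up to 10 a comparison by p), those with the lowest p each way, those with the most extreme means or spread, and paralogues; Rplp1, Rplp2, Rps12, Ncl, Larp1, Eef1a1 and the biogenesis genes were named after their values were seen. The fit was also run on simulated data with independent noise for each gene and array. That simulation held no slide, replicate or patch structure, so it cannot say how the fit handles these.

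The labels do not say whether replicate numbers pair mice across groups. In the chicory experiment, residuals of same-numbered arrays correlated at 0.123 to 0.709 (45 pairs), against -0.528 to 0.393 for other numbers. There all replicate 1 arrays lay on slides 5 and 6 and all replicate 3 arrays on slides 1 and 2. Number and slide can thus hardly be told apart in that experiment. In the inulin experiment the residuals of same-numbered arrays correlated at -0.525 to 0.401. Blocks of replicate number and of slide (12 residual degrees of freedom as a fixed block; consensus correlation 0.386 as a random block), other scalings, filters and probe choices, and leaving out each array were tried. The patch on the female G12 replicate 2 array was masked, and every probe was fitted, as alternatives added after seeing the data. Start regions are RefSeq's, build GRCm38.p6; no protein sequence was used here.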

Additional observations from a re-analysis of the deposited data

How the results depend on the processing

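Counts of members called kept to within 1.5 times in all but the following. With slide as a fixed block, G35 in females went from 0 to 1 cytosolic, G12 in females to 2 cytosolic and 5 mitochondrial, and the sex comparison to 11 and 9; with the patch also masked, a choice made after seeing the data, these were 1, 1 and 1, and 11 and 10. With slide as a random block the sex comparison called 5 and 7. It called 1 and 0 with 75th percentile scaling and with only the arrays of the groups compared, and 1 and 1 with limma's trend and robust options. Control 2 against control 1 called 8 mitochondrial members with only the groups compared, where fewer arrays estimate the spread. The cause of the other shifts was not tested. Except for the slide fixed block, the share of all genes called in these fits is not given. The shifts therefore cannot be read as particular to ribosomal protein genes.

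Medians of cytosolic members moved by more than the spread between arrays for G35 in males (-0.23 with median centring, -0.21 with 75th percentile scaling), G12 in males (-0.11 and -0.12), G12 in females (0.0902 with slide and the patch masked), inulin in males (-0.10 with median centring) and inulin in females (0.0276 with slide, also with the patch masked, and 0.10 with 75th percentile scaling). Of the members called, only those with the lowest p in each comparison were followed across these settings, and none of them changed sign. Other called members were not followed. Among these were Rpl10, Rpl12 and Rpl13 between the control groups, whose further probes went the opposite way to the brightest.

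Leaving out each array in turn, the sex comparison called 1 to 5 cytosolic and 0 to 5 mitochondrial members, and control 2 against control 1 called 13 to 25 and 9 to 19. Every gavage comparison stayed at 0. The share of all genes called without each array is not given. Cytosolic medians ran from 0.0295 to 0.116 for G35 in females, -0.0734 to 0.0587 for G12 in males, -0.0942 to 0.00963 for inulin in males and -0.0537 to 0.0246 for inulin in females.

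With the replicate block, which largely follows the slides in the chicory experiment, the sex comparison called 3 cytosolic and 4 mitochondrial members. Control 2 against control 1 called 22 and 9, and all gavage counts stayed at 0. The shares of all genes called with this block are not given either. The block ended the calls of Rps19 and Mrpl39 between the sexes and, of the 10 members with the lowest p, of Mrps30 between the control groups (-0.38, adjusted p = 0.0841). Median centring and 75th percentile scaling ended the call of Rpl10a (0.13 and 0.16). With 3 mice a group and median within-group SDs of 0.238 (cytosolic) and 0.207 (mitochondrial), small differences of ribosomal protein transcripts cannot be resolved.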
